A study of Mus musculus with 23 samples.

Results

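The genes described are the ABC transporters of the mouse, 49 of the 32285 genes in the feature table. They are the genes whose symbol is Abc, a subfamily letter from a to g, a number and an optional letter, with 1 such symbol left out. Their RNA was counted as UMIs, single captured molecules, in droplet libraries of brain cells. An antibody carrying the fluorescent dye AF647 had been given into a vein at 45 mg/kg, 24 hours before the cells were taken. ATV-TfR, an antibody transport vehicle that binds the transferrin receptor, was given to TfR mu/hu KI mice. ATV-CD98hc, which binds the CD98hc subunit of an amino acid transporter, was given to CD98hc mu/hu KI mice, and control IgG to C57BL/6 mice. Both knock-ins carry a mouse and human form of the receptor on the C57BL/6J background, so antibody and genotype cannot be told apart. Mice were 3.3 months old in the sample labels and 12 weeks old in the design text. Cells were sorted into negative, low, medium and high bins of AF647 signal, with gates that were set on positive cells from ATV-TfR and used for every treatment. Each treatment had 2 pools, each of 1 male and 1 female mouse. The 23 libraries fall into 12 groups of 2, except that the control IgG negative bin has 1 library, from replicate 2. The 4 bins of a pool share a replicate number and are taken to come from the same 2 animals.

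ABC transporters are membrane proteins that use ATP to move a substrate across a membrane. At the blood-brain barrier, P-glycoprotein (Abcb1a) and the breast cancer resistance protein (Abcg2) sit on the blood side of the endothelium and return drugs to the blood, and Abcc4 exports organic anions. Other subfamilies export cholesterol and phospholipids to lipoproteins (Abca1, Abcg1), serve lipid handling inside lysosomes (Abca2, Abca3), or import fatty acids into peroxisomes (Abcd2, Abcd3), while the Abce and Abcf members act in translation and carry nothing across a membrane.

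Library totals ran from 1861238 to 90307818 UMIs, and 234024 cells were kept after filters, 519 to 19341 per library. Cells were clustered without the members and given a class, written with the ending -like, from lists of marker genes. The 10 largest classes held 98014 endothelial-like and 91929 astrocyte-like cells, down to 873 ependymal-like cells. In 9 of these classes every marker of the list was higher than in any other class, and in border macrophage-like cells 9 of 10 were. Libraries are uneven across bins. The ATV-TfR negative libraries held 131 and 96 endothelial-like cells and the ATV-CD98hc negative libraries 83 and 64, against 8977 to 16645 in the high libraries. Control IgG high libraries held 10 and 14 endothelial-like cells and entered no fit of that class. Of 227239 barcode sequences, 6675 (2.94%) occurred in more than 1 library. Levels are given as CPM, UMIs of the gene per 1000000 UMIs of the class. The libraries count molecules near the 3′ end, so a level is compared between classes or samples for 1 gene and never between genes.

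Promoter sequences are shown for 3 members that the results below turn on. Abcb1a and Abcb1b are neighbouring paralogues on chromosome 5 that were highest in different classes, and Abca1 is the cholesterol exporter whose level differed between sorted bins. Each line holds the 250 bases before the annotated start, 5′ to 3′ on the strand of the gene, from RefSeq GRCm38.p6, with matches to 6 short motifs in capitals. Abcb1a lies at chr5:8566841-8567090 on the plus strand, Abcb1b at chr5:8797897-8798146 on the plus strand and Abca1 at chr4:53159896-53160145 on the minus strand.
Abcb1a: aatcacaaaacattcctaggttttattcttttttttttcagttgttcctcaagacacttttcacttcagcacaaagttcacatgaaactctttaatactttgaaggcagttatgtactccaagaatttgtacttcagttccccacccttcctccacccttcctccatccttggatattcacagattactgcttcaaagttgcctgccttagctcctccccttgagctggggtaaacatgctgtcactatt
Abcb1b: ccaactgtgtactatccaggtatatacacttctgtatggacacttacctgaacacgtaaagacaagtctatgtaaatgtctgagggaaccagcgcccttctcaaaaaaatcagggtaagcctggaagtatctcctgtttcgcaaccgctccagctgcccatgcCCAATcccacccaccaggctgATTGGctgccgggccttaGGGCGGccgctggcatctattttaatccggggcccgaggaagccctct
Abca1: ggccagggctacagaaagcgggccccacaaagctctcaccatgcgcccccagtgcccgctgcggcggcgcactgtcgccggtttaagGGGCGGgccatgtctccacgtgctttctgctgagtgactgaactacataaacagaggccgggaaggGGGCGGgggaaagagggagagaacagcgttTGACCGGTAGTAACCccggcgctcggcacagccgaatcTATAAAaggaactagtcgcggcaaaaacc
The motifs, searched on both strands, were the CCAAT box (CCAAT), the GC box (GGGCGG), the TATA box (TATAAA), the nuclear receptor half-site (AGGTCA), a direct repeat of that half-site with 4 bases between its copies (GGTNA, then any 5 bases, then GGTCA) and the xenobiotic response core (GCGTG). The Abcb1a window held none of these letters. The Abcb1b window held 2 CCAAT boxes, 1 on each strand, and 1 GC box. The Abca1 window held 2 GC boxes, a TATA box that begins 29 bases before the start, and the direct repeat on the opposite strand. Of 32851 promoters of this length, 33.8% held a CCAAT box, 32.7% a GC box, 12.4% a TATA box, 14.0% the half-site and 28.2% the xenobiotic core. The direct repeat was in 58 of them. Promoters were matched for 37 of the 49 members (44 windows, since some genes have more than 1), and Abca1 was the 1 member with the repeat.

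The first question was which brain cells carry each member. Of the 49, 34 reached 20 CPM in at least 1 of the 10 large classes and 15 did not. For 14 of the 34, every pool of the highest class lay above every pool of each other of these 10 classes. These 14 were 5 of the 6 members highest in astrocyte-like cells, 4 of the 6 highest in endothelial-like cells, 4 of the 5 highest in oligodendrocyte-like cells and 1 of the 6 highest in microglia-like cells. Ranks, next classes and overlaps in the account of levels are among these 10 classes. With 7 smaller classes of 97 to 276 cells included, 23 of the 34 members keep their highest class and 8 of the 14 stay without overlap. Abca7 is then highest in neutrophil-like cells (99.9 CPM on 49 UMIs), Abca5 in neuron-like cells (69.1 CPM on 147 UMIs), and Abcc5 and Abcd4 in oligodendrocyte precursor-like cells (249.6 and 56.4 CPM on 73 and 16 UMIs). Abcc1 is then highest in monocyte or dendritic cell-like cells (59.1 CPM on 86 UMIs). Abca13 in neutrophil-like cells (202.7 CPM on 104 UMIs) and Abcc8 in neuron-like cells (37.5 CPM on 77 UMIs) also pass 20 CPM. That makes 36 members over all classes. Classes come from clusters of these same cells, so the levels are descriptions with no test.

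**Figure D1:**
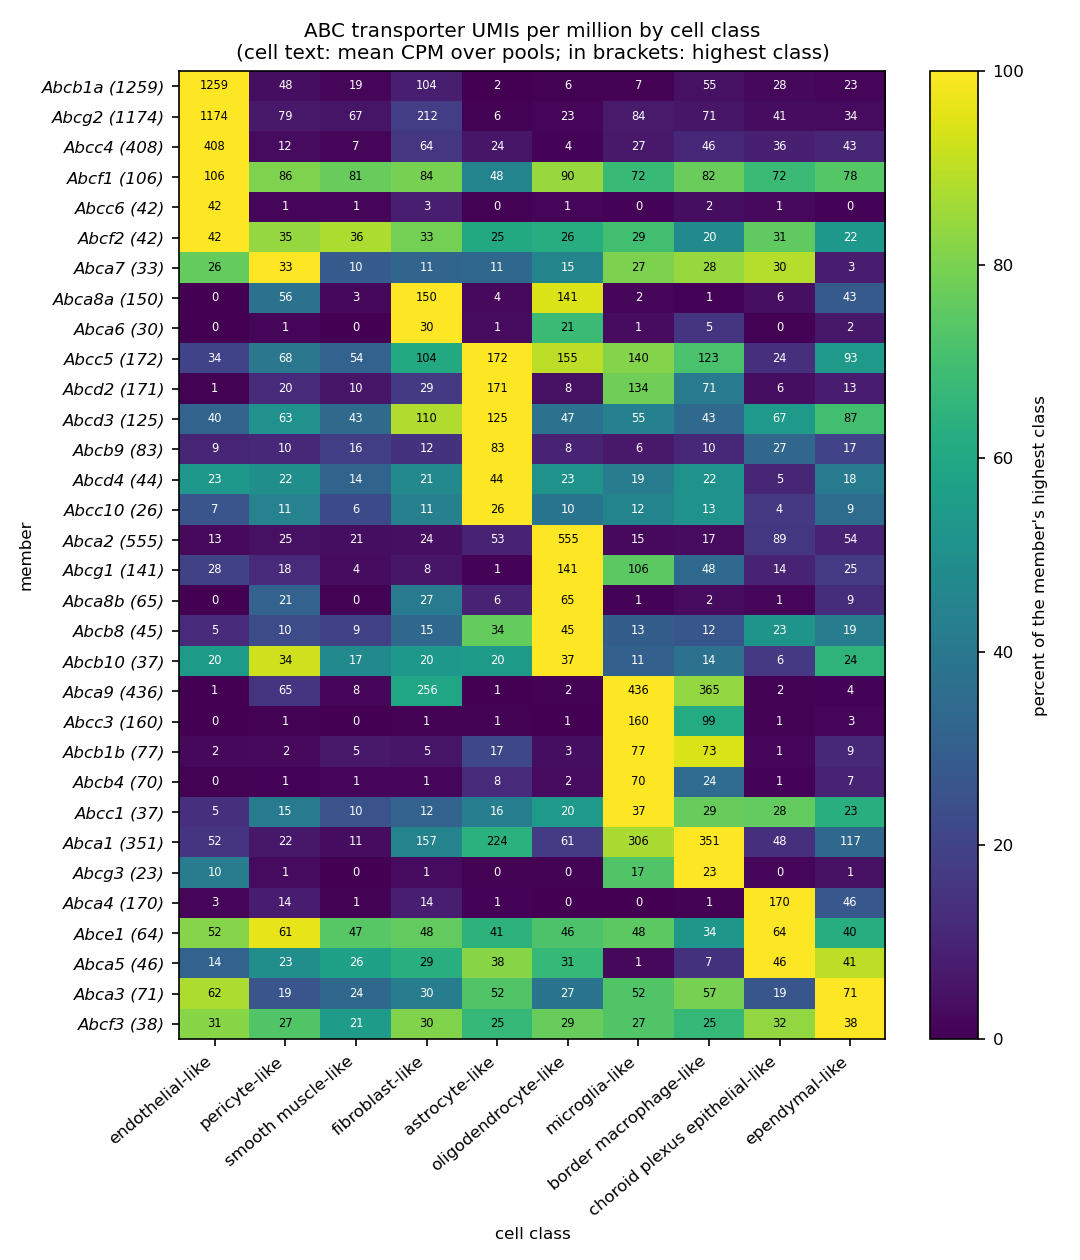
Heat map of 32 of the 34 members that reach 20 CPM in a large class (rows, with the mean CPM of the highest class in brackets) over the 10 large classes (columns). Colour is the percent of the gene's highest class and each cell prints the mean CPM over pools; Abcb1a stands at 1259 CPM in endothelial-like cells and none of the other columns is above 104 CPM.

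Of the drug efflux members, 3 were endothelial. In endothelial-like cells Abcb1a was at 1259 ± 171 CPM (SD, n = 6 pools), from 1089 to 1483 CPM, on 476130 UMIs. Its next class was fibroblast-like cells, at 104 ± 62.9 CPM, and its lowest astrocyte-like cells, at 2.17 CPM. In endothelial-like cells Abcg2 was at 1174 ± 59.1 CPM (SD, n = 6 pools), against 212 ± 42.9 CPM in fibroblast-like cells. For both genes the lowest endothelial pool lay above the highest pool of every other class. Abcc4 averaged 408 CPM over the endothelial pools. Its pools were at 369 and 330 CPM in ATV-TfR, 569 and 299 CPM in ATV-CD98hc, and 380 and 501 CPM in control IgG. The 2 ATV-CD98hc pools were thus the highest and the lowest of the 6, and the next of the 10 classes, fibroblast-like cells at 64.4 CPM, stayed below all of them. Abcc6, an ATP exporter, averaged 42.2 ± 9.05 CPM in endothelial-like cells and 3.50 CPM in fibroblast-like cells (SD, n = 6 pools).

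Abcc1, an exporter of glutathione conjugates, was lowest in endothelial-like cells. It was at 37.2 ± 8.92 CPM in microglia-like cells, 28.6 CPM in border macrophage-like and 28.2 CPM in choroid plexus epithelial-like cells, with overlapping pools, and in endothelial-like cells at 5.20 ± 0.87 CPM (SD, n = 6 pools). Abcb1b, the second rodent P-glycoprotein gene, begins on the same chromosome some way past Abcb1a. It was at 77.4 ± 15.5 CPM in microglia-like and 73.0 ± 5.09 CPM in border macrophage-like cells, which overlapped, and in endothelial-like cells at 1.77 ± 0.25 CPM (SD, n = 6 pools). Abcb4, a phosphatidylcholine exporter and the third gene of that cluster, was highest in microglia-like cells at 70.1 CPM. Its pools lay at 71.8 to 93.4 CPM except control IgG pool 1, at 9.89 CPM, which held 29 microglia-like cells. Reads shared between such close paralogues were handled by the authors' counting, and how it split them is not given in the sources used here.

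The cholesterol exporter Abca1 was highest in phagocytes. It was at 351 ± 42.1 CPM in border macrophage-like cells, 306 ± 61.9 CPM in microglia-like cells and 224 ± 17.4 CPM in astrocyte-like cells (SD, n = 6, 6 and 5 pools). The first and second of these overlapped. Endothelial-like cells had 52.3 ± 9.64 CPM. Abcg1, which passes cholesterol on to high-density lipoprotein, was at 141 ± 13.7 CPM in oligodendrocyte-like cells and 106 ± 7.23 CPM in microglia-like cells, without overlap, and at 1.12 CPM in astrocyte-like cells. Its relative Abcg4 stayed under 20 CPM everywhere, with 12.6 ± 0.63 CPM in astrocyte-like cells.

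Abca2, a lysosomal lipid transporter of myelinating cells, was at 555 ± 57.5 CPM in oligodendrocyte-like cells (SD, n = 5 pools) and 89.0 CPM in choroid plexus epithelial-like cells. Its oligodendrocyte pools ran from 490 to 616 CPM and overlapped with no other class. Abca4, the retinoid flippase of photoreceptors, was at 170 ± 33.2 CPM in choroid plexus epithelial-like cells and 46.0 ± 51.2 CPM in ependymal-like cells (SD, n = 6 pools), which overlapped. Abca3, known for loading surfactant in the lung, was at 71.1 CPM in ependymal-like and 62.4 CPM in endothelial-like cells, down to 18.8 CPM in pericyte-like cells. Of the 10 classes Abca7 was highest in pericyte-like cells, at 33.4 ± 3.59 CPM, with choroid plexus epithelial-like cells at 29.7 CPM overlapping.

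A block of 5 related lipid transporters on chromosome 11, Abca8b, Abca8a, Abca9, Abca6 and Abca5, spans from 109932206 to 110337723 (GRCm38.p6). Its 5 genes did not share 1 highest class. Abca9 was at 436 ± 74.4 CPM in microglia-like, 365 CPM in border macrophage-like and 256 CPM in fibroblast-like cells, and at 0.86 CPM in endothelial-like cells. Abca8a was at 150 CPM in fibroblast-like and 141 CPM in oligodendrocyte-like cells. Abca8b was at 65.4 CPM in oligodendrocyte-like against 26.6 CPM in fibroblast-like cells, without overlap. Abca6 was at 30.1 CPM in fibroblast-like and 20.5 CPM in oligodendrocyte-like cells. Abca5 was at 45.8 CPM in choroid plexus epithelial-like and 41.2 CPM in ependymal-like cells. Among the 10 classes, Abca8b was the 1 of the 5 with a highest class whose pools overlapped with no other, and with the smaller classes its pools overlap with oligodendrocyte precursor-like cells.

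Among the other members, the peroxisomal Abcd2 was at 171 ± 6.52 CPM and Abcd3 at 125 ± 2.51 CPM in astrocyte-like cells (SD, n = 5 pools). The next classes were microglia-like cells for Abcd2 (134 CPM) and fibroblast-like cells for Abcd3 (110 CPM), and neither overlapped. Of the 10 classes, astrocyte-like cells were also highest in the lysosomal peptide carrier Abcb9 (83.5 CPM), in Abcc5 (172 CPM), in Abcc10 (25.7 CPM) and in Abcd4 (44.1 CPM). The Abcc5 pools overlapped with those of oligodendrocyte-like cells at 155 CPM, and the pools of the others with none of the 10. The mitochondrial Abcb8 was at 44.9 CPM in oligodendrocyte-like cells. Abcc3 was at 160 ± 18.9 CPM in microglia-like and 98.5 CPM in border macrophage-like cells, without overlap (SD, n = 6 pools). Of the translation factors, Abcf1 ran from 47.9 CPM in astrocyte-like to 106 CPM in endothelial-like cells, and Abce1 from 33.7 to 63.7 CPM.

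The endothelial-like cells were clustered again and named by markers, and 30.0% of the cells stayed unnamed. Arterial-, venous- and fenestrated-like clusters had 3 or more markers of their list among their leading genes. Capillary-like clusters matched the capillary list and no other. The arterial- and venous-like clusters and some unnamed ones matched that list too. Abcb1a, Abcg2, Abcc4 and Abcc6 were lower in the fenestrated-like cells, whose list includes Plvap, than in the other 3 kinds, and Abcc1 was not. Abcb1a was at 1138 ± 131 CPM in arterial-like, 1365 ± 122 in capillary-like and 1295 ± 225 in venous-like cells (SD, n = 6 pools), and at 190 ± 78.6 CPM in fenestrated-like cells (SD, n = 5 pools, 231 UMIs). Abcg2 was at 996 ± 30.3, 1269 ± 73.8 and 1250 ± 84.8 CPM along the same order, and at 489 ± 102 CPM in fenestrated-like cells. The fenestrated-like pools lay below all others for both genes. Capillary- and venous-like pools overlapped for both, and for Abcg2 both lay above every arterial-like pool.

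**Figure D2:**
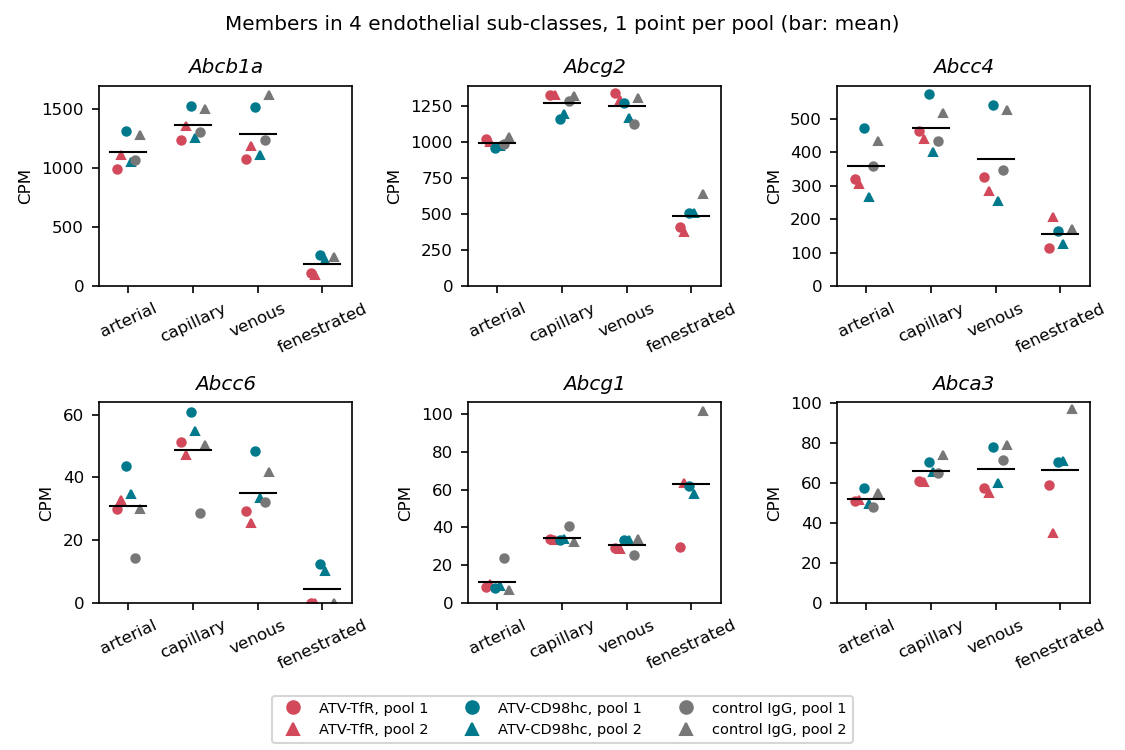
Level in CPM of efflux and lipid members in arterial-, capillary-, venous- and fenestrated-like endothelial cells, 1 point per pool, coloured by treatment, with the mean as a horizontal line. Abcb1a averages 1365 CPM in capillary-like and 190 CPM in fenestrated-like cells, while Abcg1 averages 34.4 CPM and 62.8 CPM with overlapping pools.

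Abcc4 was at 360, 471 and 380 CPM in arterial-, capillary- and venous-like cells and at 157 ± 37.9 CPM in fenestrated-like cells. ATV-CD98hc pool 1 and control IgG pool 2 were its highest pools in each of the arterial-, capillary- and venous-like cells, so the spread between pools was found in all 3 kinds of vessel. Abcc6 was at 30.9, 48.8 and 35.1 CPM and at 4.51 CPM in fenestrated-like cells, on 6 UMIs. Abcc1 averaged 7.91, 5.17 and 3.60 CPM and 15.2 ± 5.94 CPM in fenestrated-like cells, on 17 UMIs. Its fenestrated-like pools, from 8.43 to 23.1 CPM, lay above the capillary- and venous-like pools and overlapped with the arterial-like. Abcg1 was at 11 ± 6.44 CPM in arterial-like, 34.4 ± 3.03 in capillary-like, 30.6 ± 3.42 in venous-like and 62.8 ± 25.6 CPM in fenestrated-like cells. Its fenestrated-like pools, from 29.5 to 101 CPM, lay above the arterial-like pools and overlapped with the capillary- and venous-like. Abca3 was at 52.0 to 66.7 CPM in all 4. The unnamed cells stay in every level and test over all endothelial-like cells. They include a cluster of 19577 cells with 7 of its leading genes, Vtn and Rgs5 among them, highest in pericyte-like cells, and 2 clusters of 7967 and 919 cells whose leading genes include haemoglobin genes. Of the levels and tests, only those of 1 kind of vessel alone leave these 3 clusters out, and their part in the other results was not tested. Another unnamed cluster held 792 cells, and 6 of its 10 leading genes, C1qa and Trem2 among them, were highest in microglia-like cells. It also matched 6 of the 7 arterial markers, and Mgp and Fbln5 were among its other leading genes. This cluster is not counted as arterial-like.

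The next question was whether endothelial-like cells that took up much antibody differ in these genes from those that took up none. In ATV-TfR, Abcb1a and Abcg2 were higher in the high than in the negative bin over all endothelial-like cells, and neither was called once 2 clusters that made up most of the negative bin were left out. These are the fenestrated-like cells and the unnamed cluster led by microglia genes, which were 32.0% and 37.4% of the ATV-TfR negative bin and 0 and 0.200% of the high bin. In ATV-CD98hc they were 10.5% and 22.4% of the negative bin and 0.0617% and 0.0699% of the high bin. As shares of all endothelial-like cells of ATV-TfR, capillary-like cells went from 4.72% to 28.1% and arterial-like cells from 14.9% to 19.7%.

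Over all endothelial-like cells of ATV-TfR, the low and medium bins lay between the negative and the high. Abcb1a was at 544 and 509 CPM in the negative libraries, 690 and 725 in the low, 1009 and 1104 in the medium, and 1108 and 1194 CPM in the high libraries. Abcg2 was at 591 and 462 CPM in the negative, 662 and 656 in the low, 1101 and 998 in the medium, and 1235 and 1202 CPM in the high libraries. Negative and high libraries did not overlap for either gene.

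Fold changes below come from edgeR's quasi-likelihood test over all genes tested, with Benjamini-Hochberg adjustment, and a gene is called below 0.05. Abcb1a rose by 1.40 ± 0.20 on the log2 scale from the negative to the high bin (SE, adjusted p 2.29e-05), and Abcg2 by 1.48 ± 0.19 (SE, adjusted p 3.20e-06). Abcc6 rose by 1.44 ± 0.36 (SE, adjusted p 0.0080), on 15 UMIs in the negative bin. Abcc4 was at 225 and 252 CPM in the negative and 369 and 328 CPM in the high libraries, and its change of 0.83 ± 0.32 was not called (adjusted p 0.100). With the pool as a replicate block it was called at a log2 change of 0.83 (adjusted p 6.36e-05). Abcc1 was not called, at -1.23 ± 0.52 (adjusted p 0.134). Abcc3 and Abca9, both genes of microglia-like cells here, fell by 5.28 and 3.71 on the log2 scale (adjusted p 0.0099 and 0.0081), on 4 and 6 UMIs in the negative bin. In those cells the summed microglia markers were at 598 to 1147 CPM in the negative and 75.1 to 95.0 CPM in the high bin, and their part in the 2 falls was not tested.

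In all, 5 of 36 members tested were called, 3 higher and 2 lower, where 12.5% of 15618 genes were. The median log2 change was 0.13 over the members and 0.21 over all genes. RLE scaling in place of TMM moves the median of all genes to -0.06 and the share of higher genes among all calls from 39.1% to 18.9%. Abcb1a is then at 1.13 and Abcg2 at 1.21, both called, and Abcc6 is lost at an adjusted p of 0.052. Without ATV-TfR replicate 2 Abcg2 alone of the members stayed called, and without ATV-TfR replicate 1 Abcb1a and Abcg2 alone did. Each of these fits has 1 library per ATV-TfR bin. Without replicate 1 the share of all genes called fell too, so that loss of calls was not particular to the members.

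Without the fenestrated-like cells and the cluster led by microglia genes, 46 and 25 cells were left in the ATV-TfR negative libraries. Of these, 24 and 11 were arterial-like, against 3328 of 16598 and 2971 of 15367 cells in the high libraries. The part of this share in the values below was not tested. Abcb1a was then at 964 and 1106 CPM in the negative and 1109.5 and 1195 CPM in the high libraries, a change of 0.43 ± 0.21 (log2, SE, adjusted p 0.466). Abcg2 was at 1010.4 and 827 CPM and at 1236 and 1203 CPM (0.66 ± 0.19, adjusted p 0.107). The low libraries, at 856 and 872 CPM of Abcb1a and 823 and 814 CPM of Abcg2, were below both negative libraries. The order of the bins seen over all endothelial-like cells was thus not found here. For Abcg2 the nearer negative library, at 827 CPM, held 25 cells. Of the low cells left, 169 of 239 and 114 of 158 were arterial-like, and their part was not tested. The negative and high bins did not overlap for either gene, and 0 of 34 members were called by edgeR, 4 had an unadjusted p below 0.05 and 1.27% of genes were called. DESeq2 was not run on these cells, and this choice of cells was made after the data had been seen. The negative library of replicate 1 was the 1 of the 2 with 20 arterial-like cells, at 954 CPM of Abcb1a and 770 CPM of Abcg2, against 1023 and 1133 CPM and 1055 and 1047 CPM in the high libraries. In arterial-like cells alone 0 of 31 members were called by edgeR, 4 had an unadjusted p below 0.05 and 0.499% of genes were called.

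**Figure D3:**
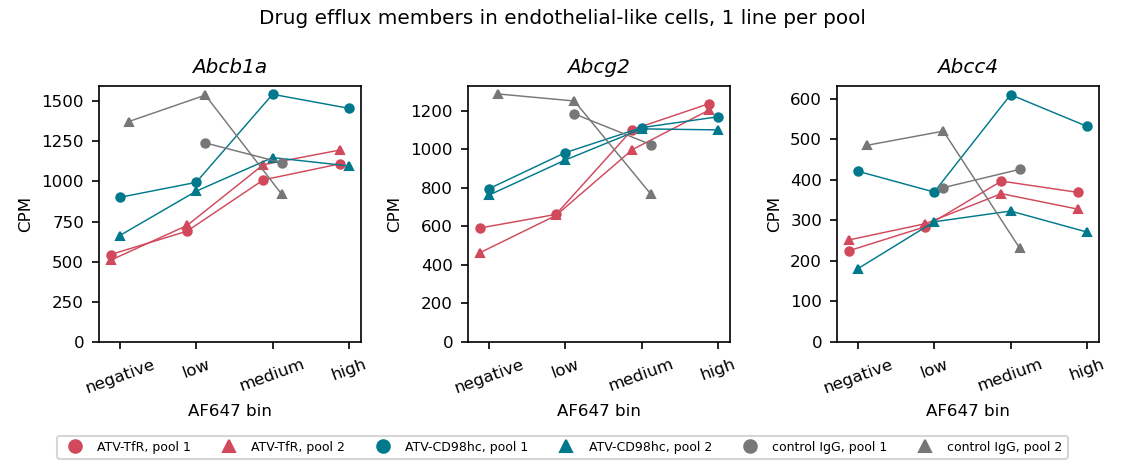
Level in CPM of Abcb1a, Abcg2 and Abcc4 in endothelial-like cells by AF647 bin, 1 point per library and 1 line per pool, coloured by treatment. In ATV-TfR, Abcb1a climbs from 509 to 544 CPM in the negative bin to 1108 to 1194 CPM in the high bin, while control IgG starts at 1372 CPM in the negative bin. These negative bins differ in make-up: fenestrated-like cells were 32.0% in ATV-TfR and 0.753% in control IgG.

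Abcb1a and Abcg2 also rose in ATV-CD98hc over all endothelial-like cells. Abcb1a was at 900 and 663 CPM in the negative and 1454 and 1096 CPM in the high libraries, a rise of 0.91 ± 0.20 (log2, SE, adjusted p 0.0059). Abcg2 was at 794 and 761 CPM and at 1167 and 1100 CPM, a rise of 0.77 ± 0.19 (log2, SE, adjusted p 0.011). Negative and high libraries did not overlap for either gene. Abcc4 was at 421 and 181 CPM in the negative and 532 and 271 CPM in the high libraries, so pools overlapped between bins while each pool was higher in its high bin. It was not called (0.56 ± 0.33, adjusted p 0.385) but was with the pool as a replicate block (adjusted p 0.023). Abca9 fell by 4.27 (log2, adjusted p 0.012), from 5 UMIs that were all in replicate 1.

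Here 3 of 36 members were called, against 6.54% of all genes, and 5 with the replicate block, the others being Abcc4 and Abcg1. With RLE scaling the median of all genes goes from 0.22 to -0.01, the share of higher genes among all calls from 29.9% to 15.8%, and Abcg2 is lost (0.53, adjusted p 0.083). The call of Abcg2 was lost without ATV-TfR replicate 1, ATV-TfR replicate 2, ATV-CD98hc replicate 1 or ATV-CD98hc replicate 2. Without either ATV-CD98hc replicate, which leaves 1 library per ATV-CD98hc bin, the share of all genes called fell as well. The negative library of ATV-CD98hc replicate 1 also held 22510 CPM of erythroid markers, and replicate 2 none. Without the fenestrated-like cells and the cluster led by microglia genes, 57 and 42 negative cells were left, and neither gene was called. Of these cells 27 and 19 were arterial-like, against 1208 of 8968 and 1921 of 11632 in the high libraries. The part of this share was not tested. Abcb1a was at 1153 and 811 CPM in the negative and 1455 and 1097 CPM in the high libraries (0.55 ± 0.21, adjusted p 0.242). Pools overlapped between the bins while each pool was higher in its high bin. The replicate block was not run on these cells. Abcg2 was at 1003 and 1011 CPM and at 1168 and 1100.2 CPM (0.37 ± 0.19, adjusted p 0.424), without overlap. There 1 of 34 members was called, Abcg1, on 1 UMI in the negative bin (adjusted p 0.013), against 2.17% of genes. The difference between the treatments in the rise over all endothelial-like cells was not called: 0.50 on the log2 scale for Abcb1a and 0.71 for Abcg2, with 0 of 36 members called, 2 at an unadjusted p below 0.05 and 0.0192% of all genes called. DESeq2 was not run on that difference.

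Other carriers of the barrier moved as well over all endothelial-like cells, whose make-up differed between the bins as given above. Of 8 tested carriers of drugs and anions outside the ABC family, 4 rose and 1 fell in ATV-TfR from the negative to the high bin, and the counts in ATV-CD98hc were also 4 and 1, where 12.5% and 6.54% of all genes were called. Slc22a8, an organic anion transporter, rose by 2.72 and 1.93 (log2), Slco1a4 by 1.89 and 1.22, and Slco1c1, which takes up thyroid hormone, by 1.61 and 0.94. In pericyte-like cells of the ATV-TfR negative libraries Slc22a8 was at 457 and 405 CPM. The unnamed cluster with pericyte genes among its leading genes stays in these tests, and its part was not tested. The prostaglandin carrier Slco2a1 fell by 2.85 and 3.17, and its ATV-TfR call was lost without ATV-TfR replicate 1. Of 7 regulators of efflux genes, 0 rose and 2 fell in ATV-TfR, the aryl hydrocarbon receptor Ahr by 2.61 and the oestrogen receptor Esr1 by 2.82. In ATV-CD98hc Ahr alone fell, by 1.80, a call lost without ATV-CD98hc replicate 1. The ATV-TfR calls of Ahr and Esr1 were not both kept without ATV-TfR replicate 1. Of 19 sterol and lipoprotein genes, 2 rose and 2 fell in ATV-TfR, and 1 and 1 in ATV-CD98hc, against the same shares of all genes. The phospholipid transfer gene Pltp rose in both, by 1.24 and 1.03. Without the fenestrated-like cells and the cluster led by microglia genes, Slc22a8 was the 1 of these named genes still called, at 1.42 in ATV-TfR and 1.35 in ATV-CD98hc. The carriers called were then 1 and 2 of 8, and 0 of 7 regulators and 0 of 18 sterol and lipoprotein genes were called by edgeR in either antibody, where 1.27% and 2.17% of genes were. An unadjusted p below 0.05 was found for 0 of the regulators and for 3 and 6 of the sterol and lipoprotein genes, and DESeq2 was not run on these lists. The ATV-TfR changes of Ahr and Esr1 then turned to 0.16 and 7.54, on few or no UMIs in the negative bin. Over all endothelial-like cells the rises of sterol and lipoprotein genes in ATV-TfR were lost without ATV-TfR replicate 1 or replicate 2, and with RLE scaling 1 rose and 4 fell. These settings of the lists were chosen after the data had been seen.

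In control IgG, endothelial-like cells were at 1372 CPM of Abcb1a and 1286 CPM of Abcg2 in the negative bin, which 1 library represents. Of its cells 0.753% were fenestrated-like and 2.26% of the cluster led by microglia genes, against 32.0% and 37.4% in the ATV-TfR negative bin. Without those cells Abcb1a was at 1402 CPM there, against 964 and 1106 CPM in the ATV-TfR negative libraries. The part of make-up in this gap was not tested. The low libraries were at 1239 and 1536 CPM for Abcb1a, and the medium libraries, of 28 and 43 cells, at 1116 and 919 CPM. From negative to low 1 of 36 members was called, Abcd2, with 19 UMIs in the negative and 2 in the low bin (adjusted p 0.014), where 4.01% of all genes were. The spread of the 1 negative library was taken from the other groups. Abcd2 is an astrocyte gene here. It also fell in endothelial-like cells from the medium to the high bin, by 3.09 in ATV-TfR and 1.78 in ATV-CD98hc (log2, adjusted p 1.27e-05 and 0.022). The summed astrocyte markers of the ATV-TfR endothelial-like cells went from 433 to 577 CPM in the medium to 83.5 to 89.3 CPM in the high bin, and their part in the fall of Abcd2 was not tested. Between these bins Abcg1 rose by 1.05 ± 0.21 in ATV-TfR (adjusted p 0.0013), from 13.6 and 14.4 CPM to 26.7 and 24.9 CPM. Arterial-like cells, the lowest of the 4 kinds in Abcg1, went from 51.0% to 19.7% of the cells and capillary-like cells from 11.5% to 28.1%, and their part in the rise was not tested. In that comparison 2 of 36 members were called and 7.72% of all genes, and Abcg1 was lost without either ATV-TfR replicate. In ATV-CD98hc, Abcd2 was the 1 of 36 members called between these bins, against 2.64% of all genes.

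Treatments were then compared with each other. Between the high bins of ATV-TfR and ATV-CD98hc, 0 of 36 members were called in endothelial-like cells by edgeR and 0 by DESeq2, 1 had an unadjusted p below 0.05, and 0.122% of all genes were called. Abcb1a differed by -0.08 ± 0.19, Abcg2 by 0.16 ± 0.18 and Abcc4 by -0.13 ± 0.29 (log2, SE, ATV-TfR minus ATV-CD98hc). The replicate block calls Abcc6 at -0.57 and Abcg3 at -0.54, and leaving out ATV-CD98hc replicate 2 calls these and Abca1 at -0.51. The share of all genes called in these fits is not given here. In the medium bins Abcg1 was lower in ATV-TfR by 1.00 ± 0.21 (adjusted p 0.0036) and Abcd2 higher by 2.15, the 2 members called of 36, against 5.15% of all genes, and this call of Abcg1 was lost without either ATV-TfR replicate. Arterial-like cells were 51.0% of the ATV-TfR and 17.7% of the ATV-CD98hc medium bin and capillary-like cells 11.5% and 44.1%. The 44.1% is the mean of 63.5% in replicate 1 and 24.7% in replicate 2 of ATV-CD98hc. The part of these shares in the difference was not tested. With bins summed to pools, 0 of 36 members were called for either antibody against control IgG by edgeR, 0 by DESeq2, and 0% of genes were called. One member had an unadjusted p below 0.05 in ATV-TfR against control IgG and 0 in ATV-CD98hc. The change from control IgG was -0.16 ± 0.22 in ATV-TfR and -0.03 ± 0.22 in ATV-CD98hc for Abcb1a, and 0.05 ± 0.20 and -0.10 ± 0.20 for Abcg2 (log2, SE). Both comparisons use the same control pools, which were not alike in their bins. Control IgG pool 1 has no negative library and took 1039 endothelial-like cells from its low library, of which 4.52% were arterial-like. Pool 2 took 2523 from its negative library, of which 20.8% were arterial-like, and 2196 from its low library. The part of bins and kinds of vessel in these values was not tested.

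Each pool holds 1 male and 1 female mouse, and cells with UMIs of Xist alone or of Y-linked genes alone were taken as female or male. Cells with neither or both were left out. In endothelial-like cells of ATV-TfR pool 1, 7588 had neither and 573 both, beside 4238 male and 7232 female. In ATV-CD98hc pool 2, 11903 had neither and 915 both, beside 7506 male and 9382 female. Abcc4 was lower in the male endothelial-like cells of all 6 pools. The male and female levels were 340 and 401 CPM in ATV-TfR pool 1 and 328 and 346 CPM in pool 2. They were 458 and 663 CPM in ATV-CD98hc pool 1 and 287 and 324 CPM in pool 2, and 358 and 405 CPM and 468 and 540 CPM in the control IgG pools. The log2 change, with the pool as a block, was -0.24 ± 0.05 (SE, adjusted p 0.037). It was the 1 of 30 members called, where 0.634% of genes were. Its call was lost without ATV-TfR replicate 1, without ATV-CD98hc replicate 2, without either control IgG replicate, and without the block. Abcg2 was also lower in the male cells of 6 pools, at -0.08 ± 0.03, and was not called (adjusted p 0.528), and Abcb1a was lower in 3 of 6. Abcc1 was lower in 6 of 6 pools (-0.11 ± 0.09, adjusted p 0.875) and Abca1 in 1 of 6 (0.23 ± 0.07, adjusted p 0.232), and neither was called.

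In astrocyte-like cells, from the negative to the high bin of ATV-TfR, 9 of 34 members were called, 6 higher and 3 lower, where 16.4% of all genes were. The class joins several clusters with different leading genes, and their part in the comparisons of bins was not tested. Abca3 was at 43.8 and 45.0 CPM in the negative and 58.1 and 59.5 CPM in the high libraries (0.52 ± 0.11, adjusted p 0.0024). Abcc5, an exporter of cyclic nucleotides, was at 173 and 161 CPM and fell to 131 and 117 CPM (-0.31 ± 0.09, adjusted p 0.030). Abcc10 fell from 28.9 and 29.5 CPM to 14.8 and 19.4 CPM (-0.68 ± 0.18, adjusted p 0.016). Abca8b rose by 1.08 and Abca5 by 0.44 on the log2 scale. Abca1 was not called, at 198 and 204 CPM in the negative and 184 and 209 CPM in the high libraries, nor was Abcd2, at 156 and 162 CPM and at 163 and 155 CPM. Abca9 had 42 UMIs in the negative bin and 0 in the high, at least 5.11-fold lower with a floor of 3 UMIs over the group. Of these genes, the negative and high libraries overlapped for Abca1 and Abcd2 alone. Abca9 is a gene of microglia-like cells here, and the summed microglia markers of the astrocyte-like cells were at 151 to 177 CPM in the negative and 115 to 145 CPM in the high bin. Their part in the fall of Abca9 was not tested.

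Abcb1a, Abcg2 and Abcc4 rose in these cells too. Abcb1a went from 0.42 and 0.64 CPM to 20.5 and 21.2 CPM (5.38 ± 0.45, adjusted p 2.07e-07), Abcg2 from 4.96 and 4.08 CPM to 21.8 and 12.8 CPM (2.10 ± 0.31, adjusted p 0.00013), and Abcc4 from 22.7 and 21.4 CPM to 29.4 and 32.6 CPM (0.60 ± 0.13, adjusted p 0.0038). The summed endothelial markers of the astrocyte-like cells went from 12.0 to 14.3 CPM in the negative bin to 378 to 592 CPM in the high bin. Over the 17 libraries with enough astrocyte-like cells, that list was at 0.0415% to 1.89% of its endothelial-like level, and Abcb1a at 0 to 1.85% of its own. Abcc4 was at 4.04% to 14.5% of its endothelial-like level, above the share of the marker list in 17 of 17 libraries, and Abcg2 above it in 15 of 17. The part of endothelial RNA in these 3 rises was not tested. Abcc1 was at 15.9 and 16.1 CPM in the negative and 14.5 and 18.1 CPM in the high libraries and was not called (adjusted p 0.701). Left-out pools moved the calls: fewer members were called without either ATV-TfR replicate, Abcb1a among them each time, and Abcg2 was lost without replicate 1. These fits leave 1 library per ATV-TfR bin, and their share of all genes called is not given here.

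**Figure D4:**
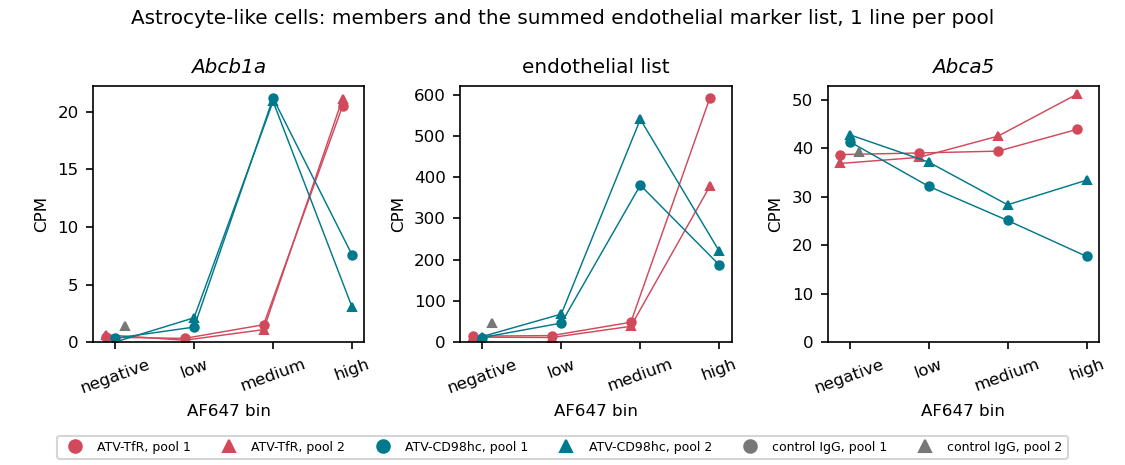
Level in CPM of Abcb1a, of the summed endothelial marker list and of Abca5 in astrocyte-like cells by AF647 bin, 1 point per library and 1 line per pool, coloured by treatment. Abca5 is at 36.8 to 42.8 CPM in the negative bins of both antibodies and parts in the high bin, at 43.9 and 51.2 CPM in ATV-TfR and 17.7 and 33.4 CPM in ATV-CD98hc.

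In ATV-CD98hc, 2 of 34 members were called from the negative to the high bin, against 7.67% of genes, and 5 by DESeq2. Abcb1a rose by 4.54 on 5 UMIs in the negative and 8 in the high bin. Abca5 went from 41.4 and 42.8 CPM to 17.7 and 33.4 CPM (-0.79 ± 0.23, adjusted p 0.040), a call lost with RLE scaling and without ATV-CD98hc replicate 1, ATV-TfR replicate 1 or ATV-TfR replicate 2. The high libraries held 182 and 205 astrocyte-like cells. The change of Abca5 differed between the antibodies by 1.23 ± 0.27 (log2, SE, adjusted p 0.0069), the 1 of 34 members called in that test, where 7.41% of genes were. Of 17 sterol and lipoprotein genes, 8 rose and 0 fell in ATV-TfR and 3 rose and 2 fell in ATV-CD98hc, where 16.4% and 7.67% of all genes were called. In ATV-TfR 1 of them was called without ATV-TfR replicate 1 and 3 without ATV-TfR replicate 2. The apolipoprotein gene Apoe rose by 1.04 (log2), the cholesterol binder Npc2 by 0.84 and the acyltransferase Lcat by 0.56. Without ATV-TfR replicate 1 none of these 3 was called (adjusted p 0.062, 0.064 and 0.385), and Lcat was also lost without ATV-TfR replicate 2. Of 7 tested regulators of efflux genes, 0 were called in either antibody.

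Between the medium bins, astrocyte-like cells of ATV-TfR and ATV-CD98hc differed in 10 of 34 members, where 20.2% of genes were called. Abca5 was higher in ATV-TfR. Its libraries were at 39.4 and 42.5 CPM there and at 25.1 and 28.3 CPM in ATV-CD98hc (0.63 ± 0.12, adjusted p 0.00088). Abcb9 was also higher, at 85.7 and 92.1 CPM against 58.4 and 69.6 CPM (0.49 ± 0.11, adjusted p 0.0041). The other 8 were lower. They were Abcb1a (-4.0), Abcg2 (-2.05), Abcc3 (-1.91), Abcg1 (-1.59), Abca4 (-1.03), Abca8b (-0.86), Abcb4 (-0.56) and Abcc4 (-0.30), all on the log2 scale. Endothelial markers summed to 38.2 to 48.1 CPM in ATV-TfR and 381 to 540 CPM in ATV-CD98hc in these libraries, and their part in the lower values was not tested. Fewer members were called without ATV-TfR replicate 1 or replicate 2, which leaves 1 ATV-TfR library, and the share of all genes called there is not given here.

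Abcb1a also rose in other classes. From the negative to the high bin, Abcb1a in choroid plexus epithelial-like cells went from 0 UMIs to 158 in ATV-TfR and to 275 in ATV-CD98hc, at least 56.5-fold and 36.7-fold higher with a floor of 3 UMIs over the group. In border macrophage-like cells of ATV-TfR it went from 0 to 87 UMIs, at least 26.8-fold higher. The endothelial list went from 42.1 to 43.8 CPM to 1363 to 3250 CPM in the first of these comparisons and from 12.5 to 56.7 CPM to 2216 to 5963 CPM in the last. In microglia-like cells Abcb1a was at 0 to 12.4% of its endothelial-like level over 17 libraries and the list at 0.121% to 11.9%. In fibroblast-like cells Abcg2 and Abcc4 were above the share of the list in 19 of 19 libraries and Abcb1a in 17 of 19. In microglia-like cells Abcg2 and Abcc4 were above it in 17 of 17 libraries and Abcb1a in 5 of 17. Elsewhere Abcc4 was not always above the list: it was in 4 of 17 libraries of pericyte-like cells and 1 of 8 of smooth muscle-like cells.

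In border macrophage-like cells, phagocytes along vessels and meninges, Abca1 rose with the bin in ATV-TfR. It was at 117 and 113 CPM in the negative libraries, 350 and 320 in the low, 345 and 355 in the medium, and 486 and 428 CPM in the high libraries. The negative libraries, of 61 and 43 cells, were below all others of any treatment. From negative to low the log2 change was 1.35 ± 0.28 (adjusted p 0.0024), the 1 of 24 members called against 7.72% of genes, and it was lost without ATV-TfR replicate 1 or replicate 2. From negative to high it was 1.75 ± 0.28 (adjusted p 0.00017), among 3 of 24 members called against 5.98% of genes, and it was lost without replicate 1. The other 2 were Abcb1a and Abcg2. Astrocyte markers in these macrophages summed to 122 to 182 CPM in the negative bin, 3425 to 4814 CPM in the low bin and 71.7 to 386 CPM in the high bin, and their part was not tested.

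**Figure D5:**
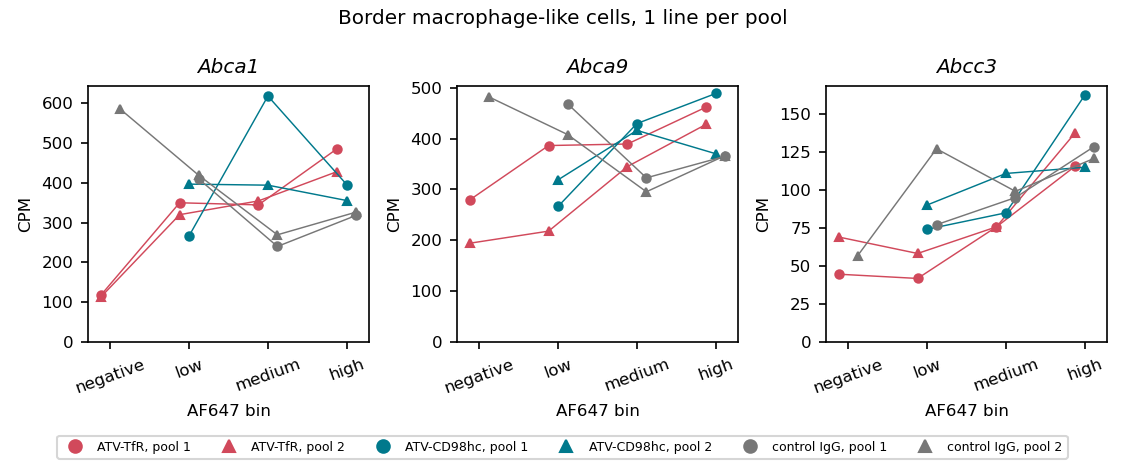
Level in CPM of Abca1, Abca9 and Abcc3 in border macrophage-like cells by AF647 bin, 1 point per library and 1 line per pool, coloured by treatment; ATV-CD98hc negative libraries held under 20 of these cells and are not drawn. The ATV-TfR negative libraries have 113 and 117 CPM of Abca1, and the control IgG negative library 586 CPM.

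The control IgG values ran differently over the bins. The negative library, of 28 cells, was at 586 CPM of Abca1, the low libraries at 410 and 419 CPM, the medium at 240 and 269 CPM and the high at 318 and 326 CPM. From the 1 negative library to the high, 0 of 24 members were called, 2 had an unadjusted p below 0.05 and 1.67% of genes were called; DESeq2 was not run there. Whether the change with the bin differs between ATV-TfR and control IgG was not tested. Abca9 was at 279 and 194 CPM in the ATV-TfR negative and 462 and 428 CPM in the high libraries, and Abcc3 at 44.5 and 69.0 CPM and at 116 and 137 CPM. Libraries of the 2 bins did not overlap for either gene, and neither was called.

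In choroid plexus epithelial-like cells, which make cerebrospinal fluid, Abca4 rose from the negative to the high bin of both antibodies. The class joins clusters of 3737 and 734 cells, and their part was not tested. In ATV-TfR it was at 132 CPM in both negative libraries and at 234 and 239 CPM in the high libraries (0.73 ± 0.18, adjusted p 0.0046). In ATV-CD98hc it was at 114 and 141 CPM and at 248 and 266 CPM (0.81 ± 0.20, adjusted p 0.0021). In control IgG it was at 131 CPM in the 1 negative library and at 177 and 230 CPM in the high ones, a change that was not called (2 of 31 members were, and 8.8% of genes), while its medium libraries were at 283 and 263 CPM. Abcc1, which exports from this epithelium to the blood, rose by 0.93 in ATV-TfR and 0.94 in ATV-CD98hc (log2). In all, 8 of 31 members were called in ATV-TfR and 13 of 31 in ATV-CD98hc, where 23.9% and 30.5% of genes were. The median log2 change was 0.50 over the members and -0.0075 over all genes in ATV-TfR. It was 0.72 and 0.01 in ATV-CD98hc, and 0.22 and -0.05 in control IgG. The gap between members and all genes was not tested. Members such as Abcb1a, with no UMIs in the negative bin of either antibody, passed the filter on low counts only through other bins. The endothelial markers of these cells also rose with the bin in ATV-TfR, as given above, and their part in the gap was not tested. Leaving out replicate 1 of either antibody ended its call of Abca4.

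In oligodendrocyte-like cells Abca8a and Abcg1 fell from the negative to the low bin. This class joins clusters of 6332 and 1084 cells with different leading genes, and their part was not tested. Abca8a was at 162 and 153 CPM in the ATV-TfR negative libraries, 75.1 and 71.2 in the low and 42.3 and 40.2 CPM in the medium libraries (low minus negative -1.22 ± 0.16, adjusted p 1.15e-05). In ATV-CD98hc it was at 152 and 135 CPM and at 90.4 and 100 CPM (-0.75 ± 0.17, adjusted p 0.0037). Abcg1 fell by 0.64 in ATV-TfR and 0.87 in ATV-CD98hc on the log2 scale. In ATV-CD98hc the fall of Abcg1 was not followed by a further fall in the medium bin. Abcg1 was at 151 and 146 CPM in the negative, 80.3 and 101 in the low and 118 and 137 CPM in the medium libraries. Abca8a, at 62.1 and 90.5 CPM in the medium libraries, was lower there than in the low library of each replicate. Its low and medium libraries overlapped. Without ATV-CD98hc replicate 1 both ATV-CD98hc calls were lost, and Abcg1 in ATV-TfR was lost without either ATV-TfR replicate. Abcd2 and Abcb9, the astrocyte genes, rose by 2.62 and 1.62 in ATV-TfR and by 3.66 and 1.36 in ATV-CD98hc. Astrocyte markers in these cells summed to 484 to 663 CPM in the negative and 2249 to 3625 CPM in the low bin of ATV-TfR, and their part was not tested. Of 33 members, 4 and 8 were called, against 11% and 16% of genes. Abca2 was at 525 and 650 CPM in the ATV-TfR negative and 493 and 536 CPM in the low libraries, with overlapping libraries and no call.

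In fibroblast-like cells, Abca8a and Abca9 were lower in the positive bins. The class joins clusters of 1232 and 1691 cells with different leading genes, and their part in these comparisons was not tested. Abca8a was at 310 and 226 CPM in the ATV-TfR negative and 154 and 107 CPM in the low libraries (-1.06 ± 0.31, adjusted p 0.022). It was also lower in the high bin by 1.26 ± 0.35 in ATV-CD98hc and by 1.73 ± 0.38 in control IgG (log2, adjusted p 0.033 and 0.0040). Abca9 changed by -0.82, -1.15 and -1.41 in these comparisons. The control IgG negative arm is 1 library, whose spread was taken from the other groups. The ATV-TfR calls of both genes were lost without either ATV-TfR replicate. The control IgG calls were kept in the 5 fits that left out another replicate, and without control IgG replicate 2, the only one with a negative library, the comparison could not be fitted. In ATV-CD98hc, Abca8a was lost without any 1 of the 4 ATV-TfR and ATV-CD98hc replicates and Abca9 without either ATV-CD98hc replicate. The members called were 8, 3 and 3 of 30, where 13%, 6.1% and 9.69% of genes were. In microglia-like cells 0 of 31 members were called between the negative and low bins of ATV-TfR by edgeR, 3 had an unadjusted p below 0.05 and 4.17% of genes were called; DESeq2 was not run there. Abcb1b was at 71.0 and 77.0 CPM in the ATV-TfR negative libraries, and the low libraries overlapped with them.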

How the data were processed

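The authors deposited 1 matrix of UMI counts per gene and barcode for 23 libraries, made with Cell Ranger 7.1.0, per the file headers; Seurat 4 and 5 and the builds mm10 and GRCm38 stand in the submitters' processing notes. A deposited index gave the library of each barcode. The authors' treatment of reads shared by paralogues, settings for cell calling and any equalisation of depth were not given in the sources used here.

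From these counts, barcodes were kept at 500 genes or more, 800 UMIs or more and mitochondrial UMIs of 10% or less (249715 of 265025). Scrublet in scanpy 1.11.5 then removed 15691 doublets, 0.690% to 12.2% per library, with the 94th percentile of the score used in 8 libraries where the automatic threshold marked under 0.5% or over 25%. Cells were clustered on 2000 variable genes that left out the members, with 50 components and 15 neighbours, and 6411 cells stayed unnamed. An endothelial sub-cluster stayed unnamed where 5 or more of its 10 leading genes were highest in 1 other class, at over 50 times their endothelial-like level, a rule set after the data had been seen. UMIs were summed per class and library, or per class and pool, where at least 20 cells were present. Sums were tested with edgeR 4.0.16 in R 4.3.3 by the quasi-likelihood test with TMM scaling, filterByExpr and Benjamini-Hochberg adjustment over all genes tested. The script was tested on simulated data. A count of 0 was set to a floor of 3 UMIs over the group for a bound on a fold, which covers counting error only.

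Members and lists were chosen with earlier results of these data known. Every member was counted, and a few are not reported by name here; values are given for the efflux members, for lipid exporters with a class at 20 CPM, and for called members with the largest changes. The bins of a pool share a replicate number in the labels and are taken to come from the same animals. The correlation of same-numbered libraries' deviations was 0.0190 to 0.144 between bins in ATV-TfR endothelial-like cells and 0.0745 to 0.840 in ATV-CD98hc. Each treatment had 2 pools, each of 2 animals. The fits per library took every library as a separate sample, with no term for the pool unless the replicate block is named. Bins taken to share animals thus counted separately in the spread behind those p-values. The main test of male against female cells used the pool as a block. Alternatives were RLE scaling, DESeq2 1.42.0, other filters on low counts, cells with at least 2000 UMIs, leaving out each pool, and the pool as a replicate block.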

Additional observations from a re-analysis of the deposited data

Results flagged for a closer look

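Abca5, a lysosomal lipid transporter, changed differently with the bin in the astrocyte-like cells of the 2 antibodies. From the negative to the high bin it rose by 0.44 in ATV-TfR and fell by 0.79 in ATV-CD98hc, and the test of the difference itself gave 1.23 ± 0.27 on the log2 scale (SE, edgeR, adjusted p 0.0069). It was the 1 of 34 members called in that test, where 7.41% of all genes were. The ATV-CD98hc high bin held 36 UMIs of Abca5. The astrocyte-like class joins clusters with different leading genes, Lhx2 and Hopx in a cluster of 36667 cells and Agt and Slc6a11 in a cluster of 32553. Their part in the difference was not tested. The call was lost without ATV-TfR replicate 1, ATV-TfR replicate 2 or ATV-CD98hc replicate 1.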

How the results depend on the processing

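Of 250 calls of members over all classes and comparisons, 79 were kept in every fit that left out a replicate, 248 kept their sign in every fit and 243 stayed called with RLE scaling. A replicate block could be fitted for 210 of them and 205 stayed called. From the negative to the high bin of endothelial-like cells, leaving out 1 replicate gave 1 to 7 members called in ATV-TfR (5 with all) and 1 to 3 in ATV-CD98hc (3 with all), where Abca9 ran from -5.10 to 5.94 on the log2 scale, the last without ATV-CD98hc replicate 1, where the negative library left held 0 UMIs of it. Without the fenestrated-like cells and the cluster led by microglia genes, 0 members were called in ATV-TfR, where Abcc3 turned to 3.68 against 0 UMIs in the negative bin, and 1 in ATV-CD98hc. In arterial-like cells alone, with 1 negative library each, 0 were called in either. DESeq2 called 9 members in ATV-TfR, and the replicate block called 5 in ATV-CD98hc. The share of all genes called in these fits is not given here, so the counts cannot be set against it. Between the high bins of both antibodies the block called 2 and left-out replicates 0 to 3. In astrocyte-like cells the left-out counts ran from 1 to 11 in ATV-TfR and from 1 to 2 in ATV-CD98hc, where DESeq2 called 5, and from 5 to 10 between the medium bins. For male against female cells they ran from 0 to 1, with 0 without the replicate block and 2 with no filter beyond 1 UMI. A library left alone in its group was assumed to vary like the others. The capillary-like cells alone were not run for the negative bins of ATV-TfR and ATV-CD98hc, which held too few of them. Of 34 members, 30 of the 33 that reach 20 CPM in control IgG alone, and 32 to 34 when a pool was left out, had the same highest class. Few UMIs in the negative bins limit the calls of Abca9 and Abcc3 in endothelial-like cells and of Abcb1a in the other classes.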
